A study of Mus musculus with 800 samples.

Results

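AiE0390m and AiE0410m are 2 reporter vectors built on mouse enhancers, and 40 nuclei were labelled for each, 80 of the 800 labelled nuclei of the series and of its 20 vectors. Both groups came from C57Bl/6J mice and from sorted nuclei carrying a yellow fluorescent protein, SYFP2, fused to histone H2B, which holds the signal in the nucleus. AiE0390m was given as AiP12818 and AiE0410m as AiP12820, each in the PHP.eB capsid, an adeno-associated virus shell that crosses into the mouse brain from the blood, at 5e11 vector genomes per mouse in young adulthood, with sorting 3 to 4 weeks later. Every label names the anterior lateral motor cortex, while the design text names striatum and primary visual cortex as further sorted regions. Nuclei were taken by title and kept where 500 or more genes had a read, and all 80 passed.

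The pair was chosen because earlier results on these same nuclei had shown 1 vector rich in astrocytes and the other in oligodendrocytes, so the contrast between them is described here and was not tested. No label names an animal, and each vector therefore counts as 1 sample. Intervals given below are exact and cover counting error only. Reads amplified without molecule barcodes are not independent molecules, and the true error is larger.

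Astrocytes clear glutamate and potassium from around synapses, take up water and ions through membrane channels, and are joined to each other by gap junctions. Oligodendrocytes wrap axons in myelin, a stack of lipid-rich membranes held together by a small set of very abundant proteins. Both are glia and neither fires action potentials. In a sorted nucleus only RNA still inside or attached to the nucleus is read, so levels need not follow those of the whole cell.

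In both vectors the nuclei with title numbers 33 to 40 stood apart from those numbered 1 to 32. AiE0390m held 31 astrocyte-like, 8 GABAergic-like and 1 oligodendrocyte-like nuclei of 40, and AiE0410m held 32 oligodendrocyte-like, 7 striatal projection neuron-like and 1 GABAergic-like nuclei of 40. Classes are clusters of all 790 nuclei of the series with 500 or more genes, grouped without the genes of any list used here and then named by markers. Of the AiE0390m nuclei numbered 1 to 32, 31 were astrocyte-like and number 10 was GABAergic-like, whereas all 32 of AiE0410m were oligodendrocyte-like. Of the last 8 numbers, AiE0390m had 7 GABAergic-like nuclei and an oligodendrocyte-like one, number 38, and AiE0410m had 7 striatal projection neuron-like nuclei and a GABAergic-like one, number 34. No glutamatergic-like nucleus was found in either vector. The astrocyte-like share of AiE0390m was thus 77.5% (Clopper-Pearson 95% interval 61.5 to 89.2) over all nuclei and 96.9% (83.8 to 99.9) without the last 8. The oligodendrocyte-like share of AiE0410m was 80% (64.4 to 90.9) over all nuclei and 100% (89.1 to 100) without them. Library names place numbers 1 to 8 of both vectors in series S40323 and numbers 9 to 40 in S40324, so the split at 33 falls within 1 library series. In the order of the samples, numbers 33 to 40 of both vectors stand apart from numbers 9 to 32, after nuclei of other vectors. The labels do not say what this order reflects.

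**Figure D1:**
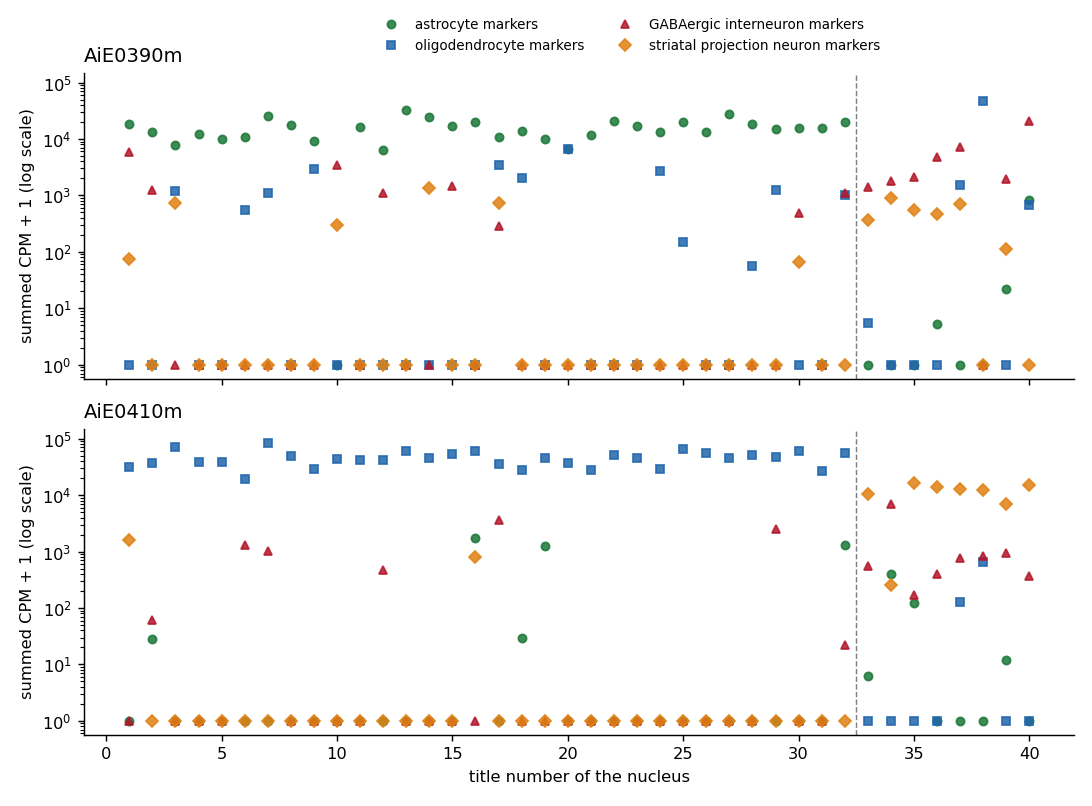
Summed level of 4 marker lists in each nucleus, as CPM plus 1 on a log scale, against the title number, with AiE0390m above and AiE0410m below; the dashed line separates numbers 32 and 33. Astrocyte markers (circles) sit high in 31 of the first 32 AiE0390m nuclei, oligodendrocyte markers (squares) in all of the first 32 AiE0410m nuclei, and both are low or at 0 in the last 8, apart from AiE0390m number 38.

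Per nucleus, the 12 astrocyte markers separated the classes with no overlap. Their summed level ran from 6356 to 32377 CPM (counts scaled to 1000000 per vector or nucleus), with a median of 15367, in the 31 astrocyte-like AiE0390m nuclei, and from 0 to 1755 in the 32 oligodendrocyte-like AiE0410m nuclei. The 12 oligodendrocyte markers ran from 19591 to 84139 CPM, with a median of 44775, in the oligodendrocyte-like AiE0410m nuclei. In the astrocyte-like AiE0390m nuclei they ran from 0 to 6506, and 19 of 31 had no read of any of them. Between 4 and 9 astrocyte markers, with a median of 7, were read in each astrocyte-like nucleus, and between 6 and 12 oligodendrocyte markers, with a median of 9, in each oligodendrocyte-like nucleus. Number 38 of AiE0390m had 10 of the 12 oligodendrocyte markers at a sum of 47292 CPM and none of the astrocyte markers.

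Slc1a3 (chr15:8634124-8710764, minus strand, mm10), which encodes the glutamate and aspartate transporter GLAST of astrocytes, ranged from 0 to 11190 CPM across the AiE0390m nuclei, with a median of 2063, and from 0 to 1755 across the AiE0410m nuclei, with a median of 0. All 31 astrocyte-like nuclei had reads, at 1021 CPM or more, and the ranges of the 2 vectors overlapped through the AiE0390m neurons and through the AiE0410m nuclei with reads. It was read in 32 of 40 AiE0390m nuclei and in 5 of 40 AiE0410m nuclei. Summed over nuclei the level was 2738 CPM (2707 to 2770) against 138 (131 to 146), a ratio of 19.8 (18.8 to 20.9), and 21.1 without the last 8 numbers. AiE0410m number 16 held 46.1% of that vector's reads, and without it the ratio was 35.5. Without AiE0390m number 14 the ratio was 17.7.

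Aqp4, the water channel of astrocyte endfeet, was read in 10 of 40 AiE0390m nuclei, from 0 to 4072 CPM with a median of 0. No AiE0410m nucleus had a read, and 3 nuclei of 40, the limit used here for a count of 0, would be 7.5%. The sums were 292 and 0 CPM, at least 986-fold higher in AiE0390m, where a sum of 0 was set to a floor of 3 counts (0.296 CPM in AiE0410m and 0.284 in AiE0390m), as in every ratio below against a vector without reads. Aqp4 thus marked fewer astrocyte-like nuclei than Slc1a3, which every one of them carried. At an equal depth of 100000 counts the shares were 25.6% of 39 nuclei for Aqp4 and 79.5% for Slc1a3 in AiE0390m.

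Mog (chr17:37010743-37023398, minus strand), the myelin oligodendrocyte glycoprotein on the outer face of myelin, ranged from 0 to 6477 CPM in AiE0410m, with a median of 42.3, and from 0 to 408 in AiE0390m, with a median of 0. It was read in 20 AiE0410m nuclei, all numbered below 33, and in 2 AiE0390m nuclei. The sums were 1445 CPM (1422 to 1469) and 12.6 (10.5 to 14.9), a ratio of 115 (96.8 to 137) in favour of AiE0410m. Of the AiE0390m reads of Mog, 99.2% lay in 1 astrocyte-like nucleus, number 17. The 12 oligodendrocyte-like AiE0410m nuclei without a Mog read carried other myelin transcripts, since the fewest myelin proteins read in any oligodendrocyte-like nucleus was 6 of 15.

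Fewer genes were detected in AiE0410m than in AiE0390m. AiE0390m nuclei had 621 to 3522 genes with a read, with a median of 1317, and AiE0410m nuclei had 557 to 2644, with a median of 806. Depth was alike, at medians of 250891 and 240446 counts per nucleus and ranges of 96446 to 447369 and 69205 to 423059. Among glia the astrocyte-like nuclei had a median of 1225 genes and the oligodendrocyte-like nuclei a median of 766.5, and the ranges, 621 to 1892 and 557 to 1270, overlapped. The neurons of both vectors lay above every glial nucleus, at 2282 to 3522 genes in the GABAergic-like AiE0390m nuclei and 2310 to 2640 in the striatal projection neuron-like AiE0410m nuclei. When every nucleus was thinned to 100000 counts, which left out 1 nucleus of each vector, the medians were 1097.5 for astrocyte-like and 667 for oligodendrocyte-like nuclei. The part of these numbers in the ratios below was not tested.

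**Figure D2:**
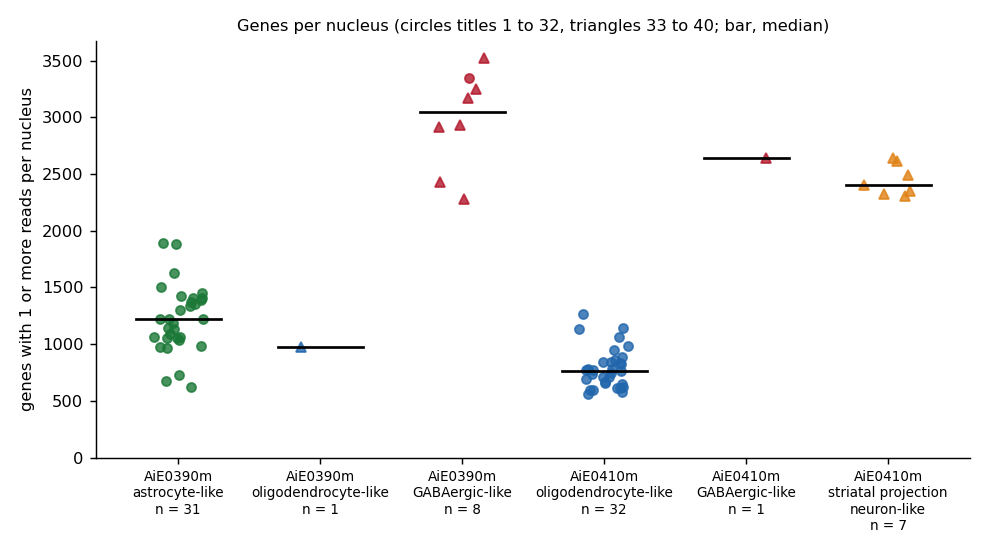
Number of genes with 1 or more reads in each nucleus, by vector and class; circles are title numbers 1 to 32, triangles 33 to 40, and bars are medians. Glial nuclei have at most 1892 genes and neurons at least 2282, and the oligodendrocyte-like nuclei of AiE0410m have the lowest median, 766.5.

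Of 4892 genes measured, meaning 20 CPM or more in the higher sum and reads in 5 or more nuclei of that vector, 1315 (26.9%) were 4-fold or more higher in AiE0390m and 723 (14.8%) in AiE0410m, or 41.7% in either direction. Without the last 8 numbers 2867 genes were measured, 1002 (34.9%) were higher in AiE0390m and 523 (18.2%) in AiE0410m, or 53.2% in either direction. Of the 1315 genes, 783 were also past 4-fold without those nuclei, which is 59.5% of the first set and 78.1% of the second. Of the 723 genes higher in AiE0410m, 442 were, or 61.1% and 84.5%. In such sums fewer nuclei of a type and less RNA per nucleus cannot be told apart. The median log2 ratio over all genes measured was 0.49 with all nuclei and 0.77 without the last 8.

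The 12 genes with the largest ratios in AiE0390m, among those with 100 CPM or more and reads in 20 or more nuclei, were Gpr37l1, Slc1a2, Ntsr2, F3, Bcan, Cldn10, Ptprz1, Slco1c1, Gja1, Gjb6, Acsbg1 and Mertk. Gpr37l1 (chr1:135160234-135167681, minus strand), an orphan receptor of glia, ranged from 0 to 20555 CPM in AiE0390m with a median of 2676 and had no read in AiE0410m. Its sum of 3781 CPM (3744 to 3818) was at least 12775-fold higher. Slc1a2, the main glutamate transporter GLT-1, was read in 33 AiE0390m nuclei, from 0 to 15811 CPM with a median of 2148, and in none of AiE0410m. Bcan, which encodes the matrix proteoglycan brevican, was likewise read in 33 against 0 nuclei and summed to 1634 CPM. Mertk, a receptor kinase with which astrocytes engulf debris, summed to 763 CPM in 26 nuclei and had no AiE0410m read.

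The corresponding 12 genes of AiE0410m were Hapln2, Cnp, Sgk1, Mog, Dock10, Gjc3, Bin1, Josd2, Mag, Opalin, Trf and Apod. Hapln2 (chr3:88021750-88027583, minus strand), a link protein of the matrix at nodes of Ranvier, ranged from 0 to 12339 CPM in AiE0410m with a median of 396 and had no AiE0390m read, at least 5885-fold higher. Cnp, a phosphodiesterase of non-compact myelin, summed to 3977 CPM (3938 to 4016) against 3.69 (2.62 to 5.05), a ratio of 1078 (788 to 1516). Trf, which encodes transferrin, the iron carrier made by oligodendrocytes, ranged from 0 to 34880 CPM with a median of 9881 in AiE0410m and summed to 12894 against 382 CPM, a ratio of 33.8, and 302 without the last 8 numbers. Dock10, an activator of small GTPases, was read in 30 AiE0410m nuclei but also, at no more than 212 CPM, in 16 AiE0390m nuclei.

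Each astrocyte-like nucleus had reads of 8 to 12 of the AiE0390m genes, with a median of 10, and no oligodendrocyte-like AiE0410m nucleus had a read of any of the 12. Oligodendrocyte-like AiE0410m nuclei had reads of 5 to 12 of the AiE0410m genes, with a median of 9. The reverse was less clean, since 20 of 31 astrocyte-like nuclei had a read of at least 1 of these, at most 3. These genes were picked for the ratio itself, and the counts describe how it was spread over nuclei.

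**Figure D3:**
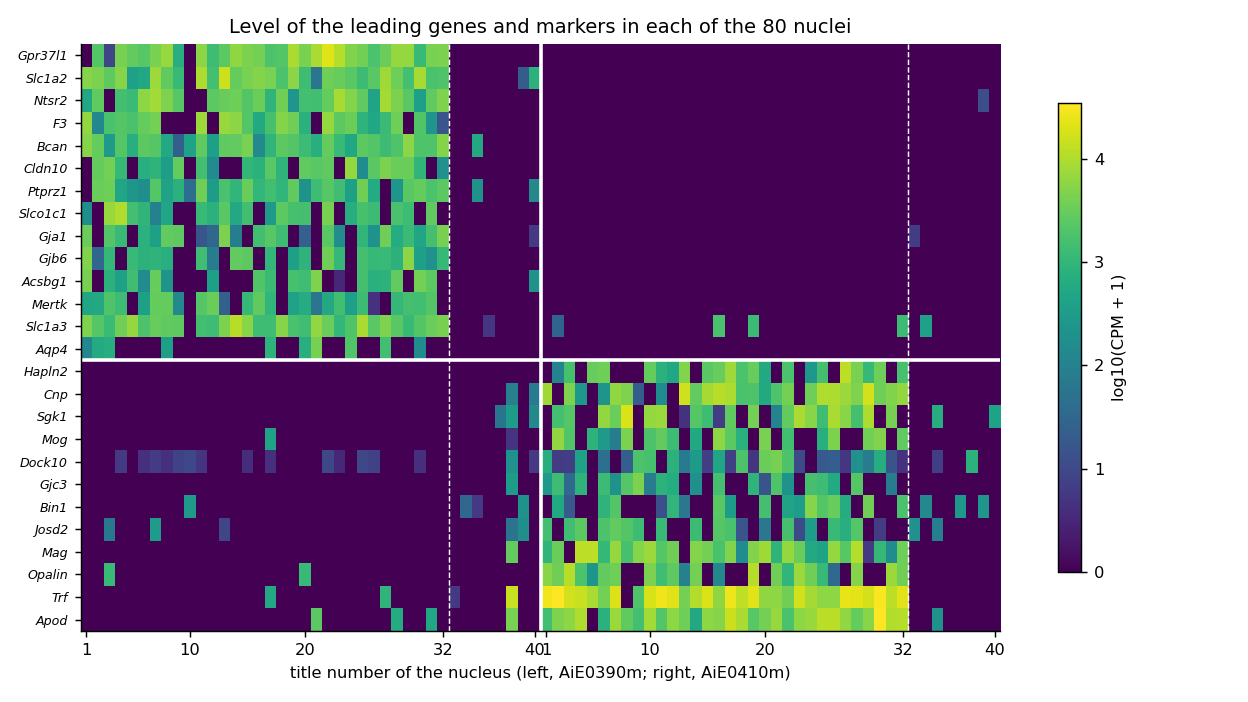
Level of the 12 leading genes of each vector with Slc1a3 and Aqp4, as log10 of CPM plus 1, in each of the 80 nuclei; dashed lines separate title numbers 32 and 33 and the solid lines separate the vectors and the 2 sets of genes. The 2 blocks of signal end at number 32, and AiE0390m number 38 carries 9 of the 12 AiE0410m genes.

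Promoter sequences of 5 leading genes are shown because the genes of each set were high in the same nuclei, and the windows were searched for the core letters of SOX factors, ACAAAG and ACAATG, and for the NFI core TTGGCA, on both strands. SOX factors include Sox9 of astrocytes and Sox10 of oligodendrocytes, and NFI factors act in the making of astrocytes. Each run is the RefSeq window from 250 bases before to 50 bases after a start site, in build GRCm38.p6, read 5′ to 3′ on the gene's strand, with matches in capitals. Gpr37l1 lies at chr1:135167632-135167931 on the minus strand, Cldn10 at chr14:118787621-118787920 on the plus strand, Mag at chr7:30914814-30915113 on the minus strand, Cnp at chr11:100574689-100574988 on the plus strand and Opalin at chr19:41077064-41077363 on the minus strand.
Gpr37l1: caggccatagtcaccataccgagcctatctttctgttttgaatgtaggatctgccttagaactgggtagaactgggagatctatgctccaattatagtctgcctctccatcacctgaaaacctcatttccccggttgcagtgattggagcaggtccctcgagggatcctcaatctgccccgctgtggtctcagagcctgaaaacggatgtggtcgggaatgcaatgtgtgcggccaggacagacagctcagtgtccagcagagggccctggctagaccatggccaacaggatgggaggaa
Cldn10: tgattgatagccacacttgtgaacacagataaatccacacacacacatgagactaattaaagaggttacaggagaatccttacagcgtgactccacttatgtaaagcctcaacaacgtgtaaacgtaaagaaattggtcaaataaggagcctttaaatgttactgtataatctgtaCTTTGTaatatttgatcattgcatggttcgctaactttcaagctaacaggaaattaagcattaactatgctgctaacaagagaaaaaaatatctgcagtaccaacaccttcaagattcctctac
Mag: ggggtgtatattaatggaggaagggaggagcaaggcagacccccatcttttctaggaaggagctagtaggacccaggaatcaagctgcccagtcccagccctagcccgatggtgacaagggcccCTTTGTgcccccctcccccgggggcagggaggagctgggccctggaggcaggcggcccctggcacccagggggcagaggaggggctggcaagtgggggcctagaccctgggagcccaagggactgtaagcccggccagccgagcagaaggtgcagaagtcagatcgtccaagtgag
Cnp: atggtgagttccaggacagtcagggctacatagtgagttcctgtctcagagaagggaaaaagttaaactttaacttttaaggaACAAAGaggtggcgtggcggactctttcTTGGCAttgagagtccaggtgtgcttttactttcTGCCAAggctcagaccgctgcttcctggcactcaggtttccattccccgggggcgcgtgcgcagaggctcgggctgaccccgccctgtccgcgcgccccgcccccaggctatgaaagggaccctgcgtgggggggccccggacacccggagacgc
Opalin: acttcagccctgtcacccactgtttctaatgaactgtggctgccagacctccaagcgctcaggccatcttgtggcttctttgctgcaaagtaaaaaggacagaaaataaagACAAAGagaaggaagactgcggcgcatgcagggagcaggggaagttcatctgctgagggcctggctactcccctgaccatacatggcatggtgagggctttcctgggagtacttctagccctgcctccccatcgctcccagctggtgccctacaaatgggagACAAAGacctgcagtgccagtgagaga

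A SOX core was present in 8 of 18 windows of the 10 matched genes leading AiE0410m and in 2 of 14 windows of 13 genes on the AiE0390m side, which counts Slc1a3 with the leading genes. By window the shares were 44.4% and 14.3%, against 28.6% of all 32851 windows of the table. By gene the counts were 7 of 10 and 2 of 13, since 2 overlapping Mag windows hold the same match. No share by gene was computed over all genes, and a gene with more windows has more places for a match. Opalin and Slco1c1 each held 2 matches of ACAAAG, and the Gpr37l1 window held none of the 3 motifs. Of the windows printed above, all but that of Gpr37l1 held a SOX core, a larger share than in either set. A further window of Cldn10 and a further window of Mag, not printed, held no SOX core. An NFI core was present in 2 of 18 and in 0 of 14 windows, against 14.1% of all windows. Several windows belong to the same gene, 6 of them to Sgk1, and a match is a match of letters only.

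By role, the genes for transmitter uptake were nearly all higher in AiE0390m. For this and every list below, the shares over all genes measured were 26.9% past 4-fold in AiE0390m and 14.8% in AiE0410m. Of 8 measured genes of glutamate and GABA uptake and the glutamine cycle, 7 were past 4-fold in AiE0390m and 0 in AiE0410m, with a median log2 ratio of 6.60. Slc38a3, a glutamine exporter, summed to 712 CPM with no AiE0410m read. Glul, glutamine synthetase, was the member that did not pass, at 624 CPM in 29 AiE0390m nuclei and 336 CPM in 24 AiE0410m nuclei.

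Among 8 measured astrocyte genes for ions, water and gap junctions, 6 were past 4-fold in AiE0390m and 1 in AiE0410m. Gja1 and Gjb6, which encode the astrocyte connexins Cx43 and Cx30, summed to 979 and 889 CPM in AiE0390m, where 1 read of Gja1 and none of Gjb6 was found in AiE0410m. Hepacam, an adhesion protein that binds Mlc1 and connexins, went the other way, at 90.7 CPM in AiE0390m and 476 in AiE0410m, and was read in 11 nuclei of each vector. The ratio was 5.25 with all nuclei, 9.19 without AiE0390m number 1 and 4.23 without AiE0410m number 27. It was reversed among nuclei with 1000 or more genes, where few oligodendrocyte-like nuclei remained, with a log2 ratio of 5.83 in favour of AiE0390m.

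Of 8 measured astrocyte receptors, 7 were past 4-fold in AiE0390m, among them Ntsr2, the neurotensin receptor of astrocytes, at 2546 CPM against 0.296, and F3, the tissue factor that starts coagulation, at 1912 against 0. Grm3, a glutamate receptor, stood at 169 and 160 CPM, a ratio of 1.06 (0.989 to 1.13) that rested on single nuclei. It was 2.29 without AiE0410m number 8 and 0.70 without AiE0390m number 29.

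Of 9 astrocyte transcription factors measured, 6 were past 4-fold in AiE0390m and none in AiE0410m. Id2 and Id4, which block helix-loop-helix factors, summed to 1391 and 639 CPM in AiE0390m and to 94.5 and 10.1 in AiE0410m. Number 8 held 72.1% of the AiE0410m reads of Id2, and number 40 held 38.2% of those of Id4. The NFI genes did not pass, with Nfib at 239 against 75.6 CPM and a ratio of 3.16 (2.91 to 3.43). Of the AiE0410m reads of Nfib 72.5% lay in number 1, and without it the ratio was 11.2, past 4-fold. Without AiE0390m number 13 the ratio of Nfib was 2.43. Of 5 forebrain patterning factors 3 were measured, Pax6 and Lhx2 among them, and each was past 4-fold in AiE0390m. Pax6 was read in 18 AiE0390m nuclei and none of AiE0410m. Notch1 with its targets Hes1 and Hes5 were the measured members of the Notch list, each higher in AiE0390m. They were thinly spread, with Notch1 in 7 nuclei and 86.1% of its reads in number 19.

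Astrocyte genes of lipid and energy metabolism were past 4-fold in AiE0390m in 8 of 10 cases, and none was in AiE0410m. Apoe, the lipid carrier of brain, ranged from 0 to 82400 CPM in AiE0390m with a median of 5486 and from 0 to 12050 in AiE0410m with a median of 2219. It was read in 34 and 30 nuclei, and the ratio of the sums, 11379 to 2767 CPM, was 4.11, and 3.53 without AiE0390m number 22. Clu, which encodes the secreted chaperone clusterin, and Cst3, the protease inhibitor cystatin C, summed to 7124 and 6595 CPM in AiE0390m against 249 and 562. Dbi, which binds acyl-CoA, was higher in AiE0410m without passing, at 428 against 798 CPM.

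**Figure D4:**
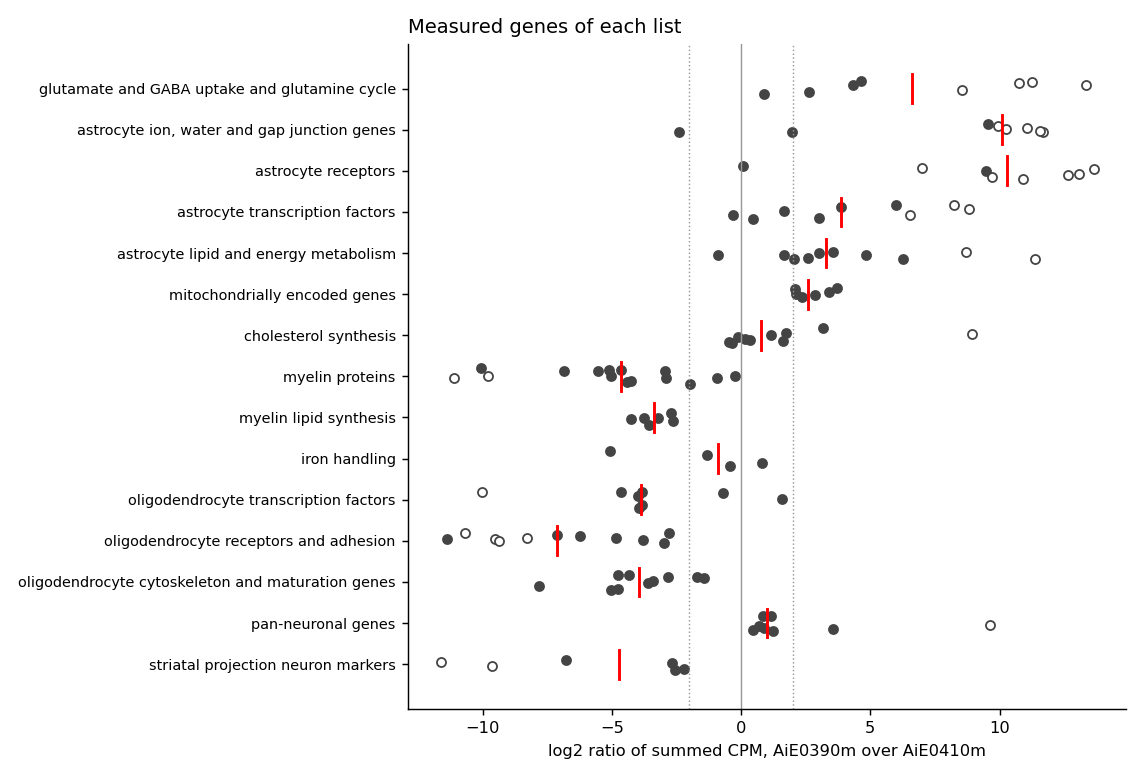
Log2 ratio of summed CPM, AiE0390m over AiE0410m, for each measured gene of 15 lists; filled points have more than 3 counts in the lower vector and open points had 3 counts or fewer there and were set to the floor of 3 counts, red bars are medians and dotted lines mark 4-fold. Astrocyte lists lie to the right, with Hepacam at the left of its list, and myelin and oligodendrocyte lists to the left.

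Of the 15 myelin proteins, all measured, 12 were past 4-fold in AiE0410m and none in AiE0390m, with a median log2 ratio of -4.65. Mbp, the basic protein that holds the layers of compact myelin together, ranged from 0 to 16410.3 CPM in AiE0410m with a median of 2559. In AiE0390m it ran from 0 to 6502 with a median of 0, and the highest nucleus was number 38. It was read in 33 AiE0410m and 9 AiE0390m nuclei, and the sums were 3941 and 519 CPM, a ratio of 7.59 (7.38 to 7.81). Mag, the adhesion protein on the axon-facing side of myelin, was read in 30 AiE0410m nuclei and, in AiE0390m, in number 38 alone. Omg, Pmp22 and Plekhb1 did not pass. Omg stood at 584 and 696 CPM, and the ratio of Plekhb1 toward AiE0410m was 3.91 with all nuclei and 8.002 without AiE0390m number 15. Without AiE0410m number 17 the ratio of Plekhb1 was 2.72.

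The single oligodendrocyte-like nucleus of AiE0390m held much of that vector's oligodendrocyte signal. Among 61 list or leading genes past 4-fold in AiE0410m, 22 had more than 50% of their AiE0390m reads in number 38. It held 88.9% of the AiE0390m reads of Trf and all of those of Mag.

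All 6 measured genes of myelin lipid synthesis were past 4-fold in AiE0410m. Cers2, which makes very long-chain ceramides, summed to 1636 against 264 CPM, Aspa, which frees acetate from N-acetylaspartate, to 1257 against 106, and Ugt8a, which makes galactosylceramide, to 748 against 38.7. Cers2 had the opposite direction among nuclei with 1000 or more genes, with a log2 ratio of 0.56 in favour of AiE0390m. Of 10 measured genes of cholesterol synthesis, which feeds myelin membrane and is also active in astrocytes, 2 were past 4-fold in AiE0390m, Insig1 among them, and 0 in AiE0410m, where 26.9% and 14.8% of all genes were. Msmo1, a sterol oxidase, stood at 1514 against 449 CPM. For iron, Trf was the sole member of 4 past 4-fold, while Fth1, the ferritin heavy chain, was read in 26 and 35 nuclei at 1398 and 3523 CPM.

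Among oligodendrocyte transcription factors 6 of 8 measured genes were past 4-fold in AiE0410m. Sox10, which drives the oligodendrocyte programme, was read in 10 AiE0410m nuclei at a sum of 302 CPM, and in AiE0390m in 1 nucleus at 12.02. Olig1 summed to 406 against 25.8 CPM and was read in 8 and 7 nuclei. Zfp536, a zinc finger repressor, was read in 15 and 4 nuclei at 330 and 22.9 CPM. At least 1 gene of this list was read in 30 of 32 oligodendrocyte-like AiE0410m nuclei, with a median of 2 genes a nucleus. Without number 19 of AiE0410m the ratio of Olig1 was 9.996 in place of 15.7, and without number 21 that of Sox10 was 16.5 in place of 25.1. All 11 measured genes of receptors and adhesion were past 4-fold in AiE0410m, with Gpr37, an orphan receptor, at 1248 against 0.473 CPM and Nfasc, the paranodal adhesion protein neurofascin, at 565 against 40.4. Cytoskeletal and maturation genes passed in 8 of 10 cases, with Enpp2, the secreted enzyme autotaxin, at 4826 against 399 CPM, Car2, carbonic anhydrase, at 3691 against 350 and Sept4, a septin, at 3392 against 168.

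Genes that mark subtypes of mature oligodendrocytes varied widely from nucleus to nucleus of AiE0410m, as did general myelin genes. Across the oligodendrocyte-like nuclei Mag ranged from 0 to 12549 CPM and Cnp from 0 to 17010. Ptgds, prostaglandin D synthase, ranged from 0 to 72536 CPM with a median of 9261 across the 32 oligodendrocyte-like nuclei. Apod, a lipid carrier, ranged from 0 to 34743 with a median of 5867. Opalin, a membrane protein of the myelin loops, ranged from 0 to 11322 with a median of 1612. Klk6, a protease, was read in 4 AiE0410m nuclei, up to 14785 CPM, and so missed the minimum of 5 nuclei. Hopx was higher in AiE0390m, at 27.6 against 0 CPM, with 48.3% of the reads in number 27. No oligodendrocyte precursor marker of 7 was measured in either vector.

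The neurons of AiE0410m carried a striatal profile although the labels name cortex. In the 7 striatal projection neuron-like nuclei the 11 striatal markers summed to 7090 to 16409 CPM with a median of 12644, and 7 to 8 of them were read in each. Penk, which encodes enkephalin, was read in all 7, from 1503 to 9474 CPM, and Rgs9, a regulator of dopamine receptor signalling, in all 7, from 635 to 2214 CPM. Drd2 and Adora2a, the dopamine and adenosine receptors of the indirect pathway, were read in 5 and 6 of the 7. Drd1 and Tac1 of the direct pathway were read in 0 of 7. Of 6 measured striatal markers all were past 4-fold in AiE0410m, and without the last 8 numbers none was measured. Pde10a, a striatal phosphodiesterase, was at 431 CPM in AiE0410m against 93.3, and after those nuclei were left out had no AiE0410m read, which put its log2 ratio at 7.90 toward AiE0390m with AiE0410m set to the floor.

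The GABAergic-like nuclei of AiE0390m were mixed. Gad1, which makes GABA, was read in all 8, from 91.2 to 2342 CPM, and in 1 of the 31 astrocyte-like nuclei, number 1, where its 4580 CPM lay above all 8. Pvalb was read in 5 of the 8 and Vip in 1, at 15445 CPM. The astrocyte-like number 1 also held the most Pvalb reads of any AiE0390m nucleus, 28.6% of that vector's. These 8 nuclei had 0 to 3 striatal markers, at sums up to 909 CPM, and pan-neuronal genes summed to 24444 to 42942 CPM.

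Single transcripts of the neuronal lists also appeared in glial nuclei. Of 8 pan-neuronal genes, all measured, 2 were past 4-fold in AiE0390m, a share near the 26.9% of all genes, and 0 in AiE0410m. Snap25, a synaptic vesicle fusion protein of neurons, was read in 15 of 31 astrocyte-like nuclei, up to 3174 CPM, and in 8 of 32 oligodendrocyte-like nuclei, up to 4095. Its summed level in the astrocyte-like nuclei, 910 CPM, compared with 1536 in the GABAergic-like nuclei of the same vector. Meg3 and Snhg11, long noncoding RNAs that were read in all 8 of those neurons at sums of 13403 and 17292 CPM, reached 77.6 and 0.587 CPM in the astrocyte-like nuclei. The source of the Snap25 reads in glial nuclei was not tested. From the glutamatergic list Rorb and Fezf2, transcription factors of cortical layers, were measured and past 4-fold in AiE0390m. Rorb was read in 11 AiE0390m nuclei at 208 CPM and Fezf2 in 5 at 129, and 57.6% of the Fezf2 reads lay in number 23. Slc17a7, the defining transporter of cortical glutamatergic neurons, was read in 4 AiE0390m nuclei at 34.4 CPM. The glutamatergic list had no read in 13 of 31 astrocyte-like and in 7 of 8 GABAergic-like AiE0390m nuclei. Whether its reads in astrocyte-like nuclei came from neurons was not tested.

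Markers of other cells were near 0. None of 8 microglia and 7 endothelial markers was measured, and their summed levels were 82.5 and 57.3 CPM in AiE0390m and 70.3 and 47.6 in AiE0410m. Of 7 mural and fibroblast markers 1 was measured, Pdgfrb, a growth factor receptor of pericytes, read in 14 AiE0390m nuclei and 1 AiE0410m nucleus at 114 and 2.47 CPM. All 14 of the AiE0390m nuclei were astrocyte-like. None of 10 reactive astrocyte genes was measured, and Gfap, the intermediate filament of reactive and white matter astrocytes, was read in 1 AiE0390m nucleus at 219 CPM. None of 9 immediate early genes was measured.

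Mitochondrially encoded RNA, which lies outside the nucleus, was higher in AiE0390m when all nuclei were summed. All 6 measured genes were past 4-fold, and the 9 genes of the list summed to 3033 against 467 CPM. The reads were uneven. Per nucleus the sum ran from 0 to 25254 CPM in AiE0390m, with a median of 507, and from 0 to 4140 in AiE0410m, with a median of 4.03. Number 9 of AiE0390m held 35.2% of that vector's mitochondrial reads, and without it the ratio of the summed lists was 4.39 in place of 6.49. mt-Cytb, of the respiratory chain, had a ratio of 13.002 with number 9 and 6.22 without it, and mt-Co1, of cytochrome oxidase, 4.28 and 3.56. With the nucleus holding most reads left out of both vectors the ratios were 5.62 for the list, 15.8 for mt-Cytb and 5.54 for mt-Co1. Within library series S40323 the list was not clearly higher in AiE0390m. There the mitochondrial sum was 715, 1176 and 708 CPM in AiE0390m numbers 4, 7 and 8 and 0 in the others. In AiE0410m it was 2496 CPM in number 4 and at most 5.84 in the others of that series. In S40323 alone mt-Co1 was higher in AiE0410m, with a log2 ratio of -1.44.

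Of 7 measured nuclear noncoding RNAs 1 was past 4-fold in each direction, beside 26.9% of all genes in AiE0390m and 14.8% in AiE0410m. Malat1, retained in nuclear speckles, was read in all 80 nuclei, from 51539 to 339024 CPM in astrocyte-like and from 18855 to 200868 in oligodendrocyte-like nuclei, with medians of 202484 and 130271. Neat1, which builds paraspeckles, was 4.31-fold (4.18 to 4.45) higher in AiE0410m, at 1893 against 439 CPM, and 3.75-fold without number 31. Hsp90aa1, a heat shock chaperone, was 6.44-fold higher in AiE0410m, while Hspa8 stood at 437 and 570 CPM. Of 4 genes for virus entry, AU040320, the receptor for adeno-associated virus, and Tm9sf2 were measured, and neither was past 4-fold. Of all genes measured 41.7% were, in either direction. AU040320 stood at 33.97 CPM in AiE0390m and 35.4 in AiE0410m, where number 1 held 63.8% of its reads, and Tm9sf2 at 315 and 349. Without the nucleus with most AiE0410m reads both were higher in AiE0390m. Without the nucleus with most AiE0390m reads the ratios toward AiE0410m were 2.17 for AU040320 and 1.46 for Tm9sf2.

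The leading genes were also set beside the 2 other vectors with most nuclei of the same class. In astrocyte-like nuclei of AiE0390m (31), AiE0391h (17) and CMV (16), the highest sum was 1.09 to 1.66 times the lowest for the 12 genes, and AiE0390m was highest for 4 of them. In oligodendrocyte-like nuclei of AiE0410m (32), AiE0447h (22) and hI56i (17), 10 of 12 genes lay within 2-fold, and AiE0410m was highest for 10. The exceptions were Opalin, at 2567, 2158 and 952 CPM, and Dock10, at 615, 433 and 1023 CPM. The genes were ranked on AiE0390m and AiE0410m, which favours these vectors in such an order, and with 1 sample a vector no difference was tested.

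**Figure D5:**
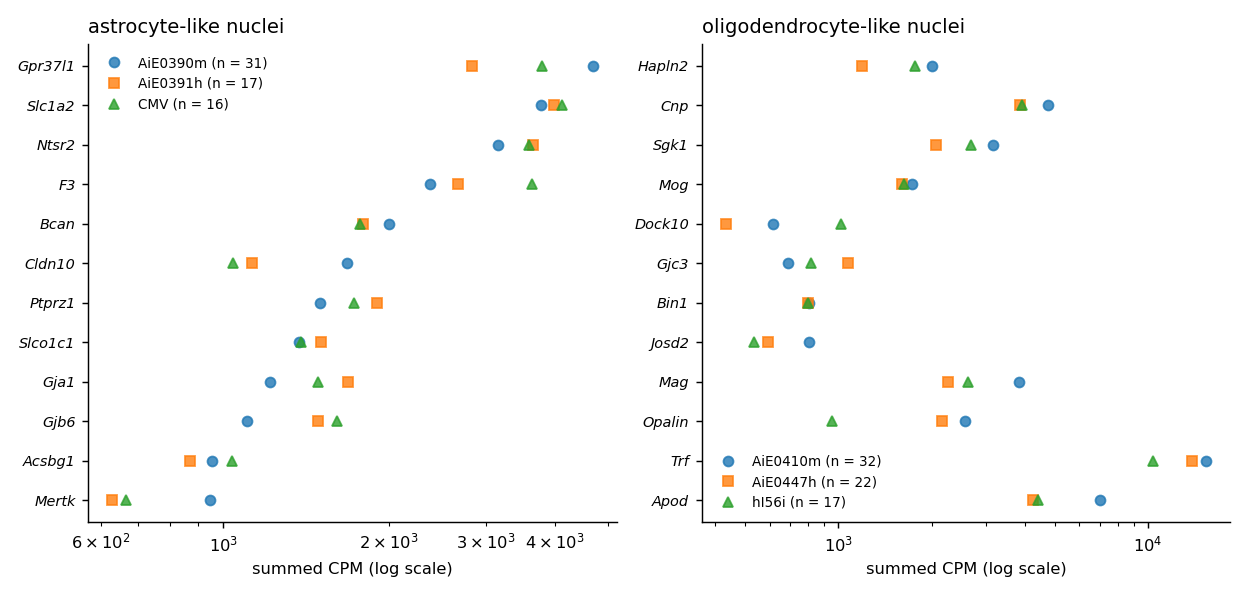
Summed CPM on a log scale of the 12 leading genes in nuclei of 1 class under 3 vectors each, astrocyte-like on the left and oligodendrocyte-like on the right. The points of a gene lie close together, within 1.66-fold on the left and within 2.698-fold on the right, where Opalin is widest.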

How the data were processed

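Single-nucleus RNA of 800 labelled nuclei from 20 vectors was read with SMART-Seq v4 and Nextera XT, per the labels' protocols, which give no strand. The authors deposited raw counts of reads per gene and nucleus. Alignment with STAR 2.7.2a to mm10 is named per the submitters' processing notes, while annotation and counting rule were not given in the sources used here. Of 2501 columns, 800 matched a labelled library name and 1701 were not used. Of 32285 genes 32158 had a symbol and 127 had none, and 26 symbols were shared. No nucleus was identical to another. Gene positions are those of GENCODE M21.

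Counts were summed over the nuclei of a vector (10567566 for AiE0390m, 10136138 for AiE0410m) and scaled to counts per 1000000 (CPM). A ratio was called at 4-fold where the higher sum reached 20 CPM with reads in 5 or more nuclei, and a sum below 3 counts was set to 3. Intervals at 95% were Clopper-Pearson for shares, Poisson for sums and exact conditional binomial for ratios. No p-value was computed, as each vector is 1 sample. For classes, 790 nuclei with 500 or more genes (10 had fewer) were grouped by Leiden clustering (resolution 1, 15 neighbours, 30 components, 2000 variable genes; leidenalg 0.10.2 within scanpy 1.11.5), with 276 genes of 33 lists left out. A name needed 3 or more markers in 25% of nuclei, a rule for scoring that was chosen once clusters had been seen. No doublet caller was run. Folds and classes were also run on simulated data. For classes, each nucleus was drawn at its own depth from the summed profile of its assigned class. The classes were thus built in, and that run cannot show that they are right. TMM (edgeR 4.0.16) and median-of-ratios (DESeq2 1.42.0) factors served as alternatives, in R 4.3.3, and the rest used Python 3.11.15 with numpy 2.4.6, scipy 1.17.1, pandas 2.3.3 and matplotlib 3.10.9.

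Genes named are Slc1a3, Aqp4 and Mog, the 12 leading genes per direction (100 CPM or more, reads in 20 or more nuclei, the same direction in both library series, no predicted or shared symbols), and the top 3 members of each list with any that went the opposite way. Other list members named were chosen after their values were seen. The members and lists were chosen with earlier results of these data known. Some list members are counted but not reported here by name.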

Additional observations from a re-analysis of the deposited data

How the results depend on the processing

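No paired analysis was possible because the results come from no test and the title numbers only name nuclei. The 1315 genes higher in AiE0390m became 153 in library series S40323 alone, 589 at a minimum of 100 CPM, 2590 with no minimum of nuclei, 94 with reads in 20 or more nuclei and 1998 at 2-fold. The 723 higher in AiE0410m became 343 among nuclei with 1000 or more genes, 73 in S40323 alone, 1733 with no minimum of nuclei, 67 with reads in 20 or more nuclei, 1254 at 2-fold and 419 at 8-fold. In S40323 alone, with 8 nuclei a vector, the astrocyte-like share of AiE0390m was 100% and its GABAergic-like share 0%, and the oligodendrocyte-like share of AiE0410m was 100% and its striatal projection neuron-like share 0%. Without title numbers 33 to 40 these shares were 96.9%, 3.12%, 100% and 0%. With a minimum of 1000 genes the oligodendrocyte-like share was 33.3% and the striatal projection neuron-like share 58.3%. Of 86 named genes, only those past 4-fold with all nuclei were scored for a change of direction. A change in a gene below 4-fold was not counted. Among the scored genes, 0 had the opposite direction under TMM scaling (factors 1.030 and 0.971), median-of-ratios scaling (1.031 and 0.970), mean CPM over nuclei, thinning or S40324 alone. Among the scored genes, the opposite direction was found for Cers2 (log2 ratio 0.56) and Hepacam (5.83) with a minimum of 1000 genes. It was found for mt-Co1 (-1.44) in S40323 alone, and for Pde10a in S40323 alone (5.57), without title numbers 33 to 40 (7.90) and between astrocyte-like and oligodendrocyte-like nuclei (7.80). The cause was not tested. Without the nucleus holding most reads of a gene, 114 of 121 list or leading genes stayed past 4-fold, and Apoe, Neat1, Pde10a, Sema4d, mt-Co1, mt-Nd1 and mt-Nd2 did not. Of 45 measured list genes not past 4-fold, 17 were past it without the nucleus holding most reads of the lower vector, among them Nfib, Plekhb1, Msmo1, Gad1 and H2-K1. Leaving out title numbers 33 to 40 for shares and genes detected, and the nucleus with most reads of either vector, were chosen after seeing the data. Depth limits single genes, since the floor of 3 counts is 0.284 CPM in AiE0390m and 0.296 in AiE0410m.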

Other observations

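Sex-linked genes were too few and too unevenly read to compare the vectors. Y-linked genes were read in 32 of 40 AiE0390m nuclei and 24 of 40 AiE0410m nuclei. Of the sex-linked list 0 of 3 measured genes were past 4-fold in either direction, beside 41.7% of all genes measured. The ratio of Kdm5d toward AiE0390m was 1.39, 6.52 without AiE0410m number 30 and 0.969 without AiE0390m number 1. That of Uty toward AiE0410m was 2.11, 4.26 without AiE0390m number 18 and 1.42 without AiE0410m number 8. Xist was read in 1 AiE0390m nucleus, which also had Y-linked reads, and in 0 AiE0410m nuclei. H2-K1, a class I antigen presentation gene and the sole measured member of its list of 10, summed to 179.7 CPM in AiE0390m and 92.4 in AiE0410m. Number 21 held 60.03% of the AiE0390m reads, and without it the ratio of 1.94 was 0.793, while number 28 held 98.2% of the AiE0410m reads.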
